A study of Mus musculus with 39 samples.

Results

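The genes that carry iron into cells, store it and pass it out again were followed in cells of mouse brown fat over a diet time course. These 8 genes were taken as the probes that carry their symbol in the deposited series table, which gave 10 probes of the 40628 on the array and 8 of its 29411 gene symbols. All 10 probes passed the filter on dim probes. C57BL/6J mice were put on a diet after weaning at 3 to 4 weeks of age. LFC mice received a low fat diet with 10% of calories from fat, and HFC mice a high fat, high sucrose diet with 60%. HF5, HF20 and HF75 mice received the high fat diet with 5, 20 or 75 µg of KAL-1, a botanical formulation. The RNA was labelled as that of brown infiltrating macrophages (SVCs), where SVCs are the stromal vascular cells left when fat cells are removed. There were 10 arrays of LFC and 11 of HFC from Day 1 to Week 18, and 6 each of HF5, HF20 and HF75 from Week 3 to Week 18, with 1 array for each diet and time label, except that LFC has no Week 6 array. For HF20 Week 12 the title and source name give HF20 while the diet characteristic gives the high fat diet alone, so HF20 values are also given without it. Replicates of a diet are therefore arrays of different time labels. How many animals an array held is not given in the sources used here, so the spread among animals cannot be given. In the comparisons p-values measure the scatter of arrays around a fit, which holds the time label in all but the time trend.

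Iron enters most cells bound to transferrin, the iron carrier of plasma, through the transferrin receptor, and leaves the endosome through a metal transporter. What is not used is stored in ferritin, a shell of heavy and light chains, and only ferroportin carries iron out of cells. Brown fat is rich in mitochondria, which build haem and iron-sulphur clusters. Macrophages recycle iron from old red cells, and in them the haem released from haemoglobin is broken down.

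The probes decide what each value stands for, so 3 probes that hold a reading frame without a stop codon are shown, for the genes whose values turn on them. The Slc11a2 probe is shown because it is listed for both transcript records of the gene and went the other way from the probes listed for 1 record each. The Trf and Hp probes are shown as the measured stretch of a plasma protein's message. Slc11a2 lies on chromosome 15, Trf on chromosome 9 and Hp on chromosome 8 in the RefSeq annotation of GRCm38.p6. The build behind the array's probes is not given in the sources used here, so no positions are given. Each probe has 60 bases, given 5′ to 3′ in the sense of the message, as deposited.
Slc11a2: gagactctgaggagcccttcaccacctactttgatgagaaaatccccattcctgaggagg
Trf: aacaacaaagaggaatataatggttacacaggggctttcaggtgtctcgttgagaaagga
Hp: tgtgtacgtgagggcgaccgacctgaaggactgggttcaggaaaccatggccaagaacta
Each of these 3 probes was free of stop codons in 2 of its 3 forward frames. The other 2 Slc11a2 probes and the Tfrc probe had stop codons in all 3 frames and are not shown. The Ftl1 probe was annotated to 6 transcript records, of which 1 is Ftl1 in the reference table and the others were not listed there, so near-identical copies of the ferritin light chain may share its signal. The other 7 genes had probes annotated to that gene alone.

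Levels are log2 of the processed signal relative to the 75th percentile of the array, so 0 is the 75th percentile and 1 unit is a doubling. Array brightness varied, with a 75th percentile of 18.1 to 3974 intensity units and 31.2% to 98.03% of spots well above background. A total of 9 arrays, of all 5 diets, carry BA or BAT in their titles, a token the labels do not explain. From Week 0 on all of the other titles hold B-A or B_A, so there BA is told apart by the separator alone. BAT stands on HFC Day 1, LFC Day 6, HF5 Week 9 and HFC Week 9, and BA on the rest of the 9. The 9 titled arrays were brighter, with a median 75th percentile of 852 units (123.6 to 1289) against 81.1 units on the other 30 arrays (18.1 to 3974). On HF20 Week 15, 71.4% of spots were marked as outliers, and Trf, Tfrc, Slc11a1 and Slc40a1 have no value there. Trf and Tfrc have no value on HF5 Week 12 either, nor has the Slc11a2 probe shown above. The macrophage label was set against markers: Emr1 and Csf1r were well above background on all 39 arrays, but so were the brown fat gene Ucp1, the fat cell gene Adipoq and the red cell gene Hbb-b1. Of 12 brown adipocyte markers 9 were well above background wherever they were measured, as were 9 of 15 macrophage markers. In such bulk RNA fewer cells of a type and less RNA per cell cannot be told apart.

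No difference of the carrier Trf between diets passed. In LFC it ranged from -0.09 to 2.69 around a median of 0.62, and in HFC from -0.36 to 2.58 around a median of 0.70. In HF5 it was 1.71, 1.09, 1.83, 0.00 and 2.36 at Week 3, 6, 9, 15 and 18, and in HF20 it was -0.22, 1.00, 1.197, 1.65 and 1.30 at Week 3, 6, 9, 12 and 18. In HF75 it ranged from 0.54 to 3.95 around a median of 0.86. All 5 diets overlapped, and the high value of HF75 stood on the Week 18 array alone. The means were 0.84 ± 0.84 (SD, n = 10) in LFC and 0.84 ± 0.79 (n = 11) in HFC. The limma difference, HFC minus LFC, was -0.01 (95% interval -0.73 to 0.71, adjusted p = 1). Against HFC, HF5 differed by 0.49 (95% interval -0.46 to 1.44) and HF75 by 0.34 (-0.55 to 1.23), and neither passed (limma, adjusted p = 1 for both). HF20 differed by -0.14, or by -0.32 without its Week 12 array, its highest. On the HF75 Week 18 array the mean of 8 hepatocyte markers, each centred on its own mean, was 6.36, above the -3.15 to 4.99 of the other 38 arrays. Alb, the albumin gene, was at 5.85 there and at most at 3.25 elsewhere. The part of these liver messages in the Trf value was not tested. The highest Trf values of LFC and HFC stood on Day 10 and at Week 12. On these arrays the mean of the brown adipocyte markers, centred in the same way, was -3.61 and -4.88, the lowest of all arrays. The part of these low brown fat markers in the Trf values was not tested.

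Tfrc, the transferrin receptor, brings iron-loaded transferrin into the cell. In LFC it ranged from -3.05 to 1.30 around a median of -1.98, and in HFC from -1.96 to 1.52 around a median of -1.49. In HF5 it was -3.66, -1.49, 0.90, 0.05 and 0.46 at Week 3, 6, 9, 15 and 18. In HF20 it was -2.03, -2.21, -1.91, 1.25 and 0.03 at Week 3, 6, 9, 12 and 18. HF75 was the tightest, from -2.11 to -0.46 around a median of -1.85. The diets overlapped throughout. HFC was above LFC at 8 of 10 time labels, with differences from -2.83 at Week 12 to 3.39 at Week 9. The difference over all labels was 0.78 (SE 0.55, 95% interval -0.34 to 1.90) and did not pass (limma, adjusted p = 1). It was 0.07 under the normexp background correction, and 0.49 to 1.17 with single time labels left out. HF75 was below HFC at 5 of 6 time labels, by a difference of -0.87 (SE 0.68, limma, adjusted p = 1), which was -0.27 under normexp and -0.28 with arrays weighted by quality. HF20 differed from HFC by -0.24, or by -0.67 without its Week 12 array, and neither passed (limma, adjusted p = 0.998 and 0.724). Tfrc was well above background on 30 of 37 arrays, so its low values are less precise.

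Slc11a2 (DMT1) moves iron out of the endosome, and on the probe shown above it had the largest estimate of the 8 genes between the control diets. In LFC it ranged from -5.04 on Day 1 to -0.80 on Day 14 around a median of -1.75. In HFC it ranged from -3.53 at Week 9 to 2.29 on Day 10 around a median of -0.43. The 2 diets overlapped. The mean was -2.02 ± 1.34 (SD, n = 10) in LFC and -0.61 ± 1.68 (n = 11) in HFC. HFC was above LFC at 9 of 10 time labels and below it at Week 9. The titled arrays among these 21 are LFC Day 6, Week 12 and Week 18 and HFC Day 1 and Week 9. LFC Day 1, where the gap to HFC was 4.69, and LFC Week 18 were not well above background on this probe. The difference of 1.52 (SE 0.83, 95% interval -0.18 to 3.22) did not pass (limma, unadjusted p = 0.0778, adjusted p = 1). It was 0.35 under normexp and 0.53 for the mean of all 3 probes.

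With KAL-1, Slc11a2 on this probe was 1.88, 0.23, -2.70, -3.84 and -1.61 in HF5 at Week 3, 6, 9, 15 and 18. HF20 ranged from -2.08 to 3.72 around a median of 0.46, and HF75 from -4.34 to 2.41 around a median of 0.21. HF20 was above HFC at 6 of 6 time labels, by 0.06 to 4.42, yet the difference of 1.5999 (SE 1.03) did not pass (limma, adjusted p = 0.998). It was 0.96 with arrays weighted by quality, 0.66 for the mean of all probes and 2.17 without the Week 12 array. The other 2 probes of the gene did not share these estimates. Between HFC and LFC they gave 0.17 (SE 0.46) and -0.11 (SE 0.61).

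Slc11a1 (NRAMP1) is the metal transporter of the phagosome of macrophages and neutrophils. Its median lay near the 75th percentile in every diet, while single arrays ranged from -1.86 to 1.75. LFC ranged from -1.36 to 1.26 around a median of -0.24, HFC from -1.86 to 1.75 around a median of -0.04, HF5 from -1.51 to 1.62 around a median of 0.04, and HF75 from -1.05 to 0.68 around a median of -0.05. HF20 was 0.30, 0.73, 0.53, -1.43 and 0.06 at Week 3, 6, 9, 12 and 18. HFC was above LFC at 5 of 10 time labels and below it at 5. The difference was -0.09 (95% interval -0.997 to 0.81, limma, adjusted p = 1).

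Slc40a1 (ferroportin) is the exporter, by which macrophages return iron to plasma. LFC ranged from -2.60 to 0.43 around a median of -0.82, and HFC from -1.97 to 2.03 around a median of -0.77. HF5 ranged from -3.04 to 1.87 around a median of 0.59, and HF75 from -1.53 to 1.77 around a median of 0.13. HF20 was -1.70, -1.24, 0.41, 1.25 and -0.03 at Week 3, 6, 9, 12 and 18. LFC had the lowest mean of the 5 diets, -1.05 ± 0.99 (SD, n = 10), and HF75 the highest, 0.08 ± 1.13 (n = 6), a gap near the spread within a diet. HFC was above LFC at 7 of 10 time labels, and the difference of 0.71 (SE 0.56, 95% interval -0.43 to 1.85) did not pass (limma, adjusted p = 1) and was 0.17 under normexp. HF20 differed from HFC by 0.23, and by -0.36 without its Week 12 array (limma, adjusted p = 0.998 and 0.849).

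**Figure D1:**
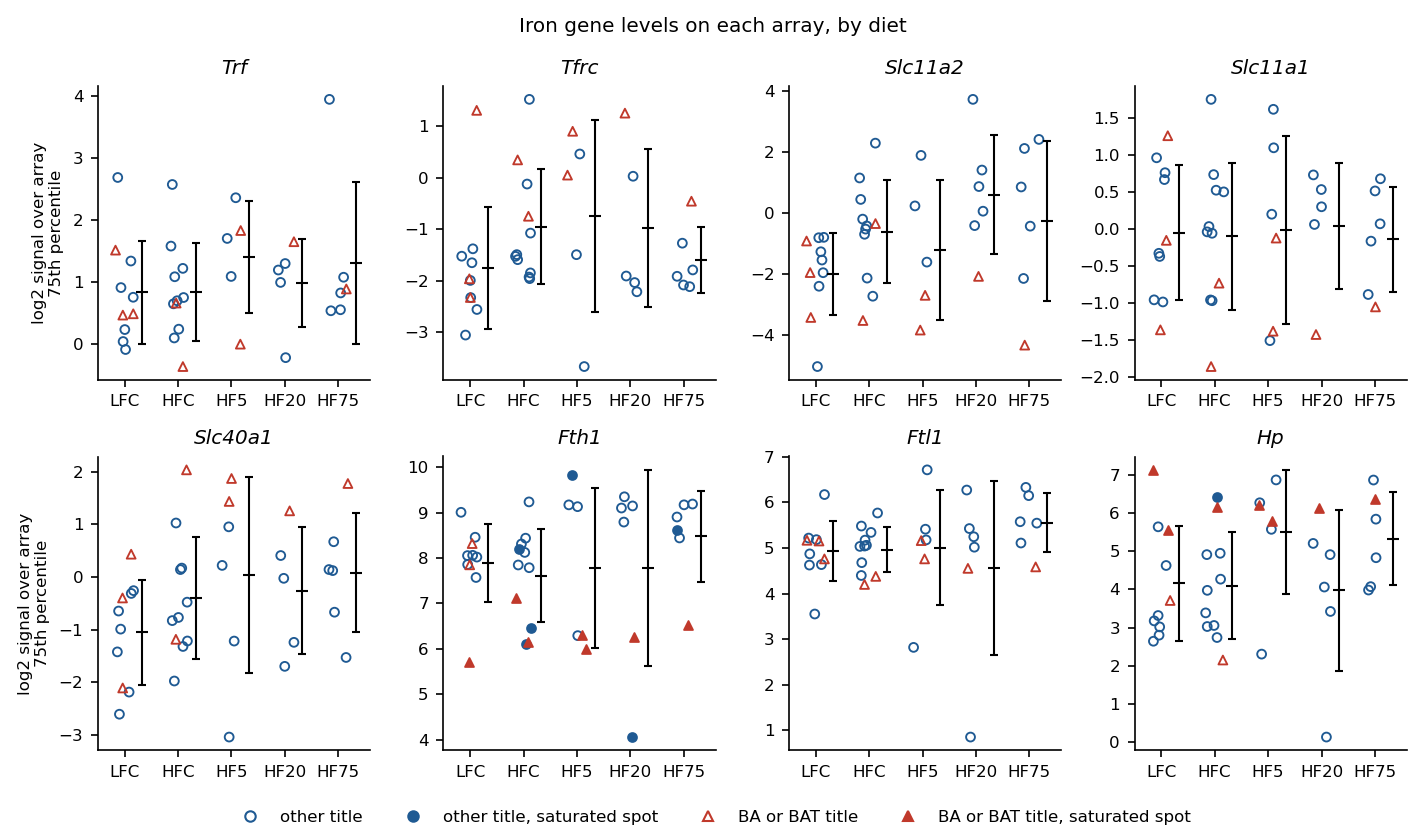
Levels of the 8 iron genes on each array by diet, as log2 signal over the 75th percentile of the array. Circles are arrays with other titles, triangles the 9 arrays titled BA or BAT, filled symbols saturated spots, and black bars the mean and SD; the diets overlap for every gene, and the saturated Fth1 values of titled arrays lie between 5.72 and 7.11.

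The ferritin chains were bright on every array, which limits what Fth1 can show. The Fth1 spot, for the heavy chain that oxidises iron as it is stored, was saturated on 13 of 39 arrays, so those values are at or below the true level. LFC ranged from 5.72 to 9.01 around a median of 8.04, HFC from 6.10 to 9.24 around a median of 7.85, HF5 from 6.00 to 9.83 around a median of 7.72, HF20 from 4.06 to 9.35 around a median of 8.95, and HF75 from 6.52 to 9.19 around a median of 8.76. The difference of HFC and LFC was -0.31 (SE 0.51, limma, adjusted p = 1) and changed sign, to 0.20, when saturated spots were left out. That of HF75 and HFC was 0.99 (SE 0.63, limma, adjusted p = 1), and 0.49 without saturated spots, 0.45 under quantile normalization and 0.43 under normexp.

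Ftl1, the light chain that helps the iron core form, was never saturated. LFC ranged from 3.55 to 6.17 around a median of 5.01, HFC from 4.1997 to 5.77 around a median of 5.04, HF5 from 2.82 to 6.72 around a median of 5.17, HF20 from 0.85 to 6.27 around a median of 5.13, and HF75 from 4.58 to 6.33 around a median of 5.56. HFC was the tightest diet, with an SD of 0.50 (n = 11). The lowest values of HF20 and HF5 stood on the arrays with the most outlier-marked spots, HF20 Week 15 and HF5 Week 12. HFC minus LFC was -0.01 (95% interval -0.94 to 0.92, limma, adjusted p = 1), and leaving out single time labels moved it between -0.14 and 0.19.

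Hp, haptoglobin, binds free haemoglobin in plasma and is made by liver and fat cells. LFC ranged from 2.64 to 7.12 around a median of 3.51, HFC from 2.15 to 6.43 around a median of 3.98, HF5 from 2.31 to 6.87 around a median of 6.00, HF20 from 0.14 to 6.13 around a median of 4.49, and HF75 from 3.98 to 6.86 around a median of 5.33. The highest HF75 value stood on the Week 18 array, whose hepatocyte marker mean of 6.36 was the highest of all arrays. The highest LFC value, also at Week 18, stood on an array with a mean of -0.19. The part of liver messages in the Hp values was not tested. The higher medians of HF5 and HF75 come with later labels, since those diets have no array before Week 3. At equal time labels HF5 was above HFC at 3 of 6 and HF75 at 3 of 6. The differences were 0.63 (SE 0.74) and 0.46 (SE 0.74), and neither passed (limma, adjusted p = 1 for both). Without the time label as a block they were 1.41 and 1.23, and without titled arrays 0.35 and -0.03. HF20 differed from HFC by -0.89, by -1.57 without its Week 12 array and by -0.16 without Week 15, and none of these passed (limma, adjusted p = 0.998, 0.55 and 1).

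Across all of these comparisons the tests called no iron gene. For HFC against LFC 0 of 34043 probes passed at an adjusted p of 0.05 (0% of all probes), and 959 (2.82%) had an unadjusted p under 0.05, none of them of an iron gene. The same adjusted count was 0 for HF5, HF20 and HF75 against HFC, where 1.46%, 2.66% and 3.55% of probes had an unadjusted p under 0.05, again none of an iron gene. The slope over the doses, in steps from HFC to HF75 on 24 arrays, was largest for Slc11a2 on its shared probe at 0.52 per step (SE 0.37), for Fth1 at 0.31 (SE 0.22) and for Tfrc at -0.30 (SE 0.23), and none passed (limma, adjusted p = 0.91, 0.909 and 0.928). With the mean of all probes the Slc11a2 slope was 0.048. Of all probes 7.04% had an unadjusted p under 0.05 in that trend. In simulated data 60% of 4-fold and 0% of 2-fold changes were recovered between HFC and LFC. At 4-fold the rate fell to 32%, 27.5% and 37% in the tests of HF5, HF20 and HF75 against HFC. It was 20% in the dose trend and 0% in the time trend on the control diets. At 2-fold each of these rates was 0%. Changes of the size estimated for most iron genes were therefore not detectable here.

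**Figure D2:**
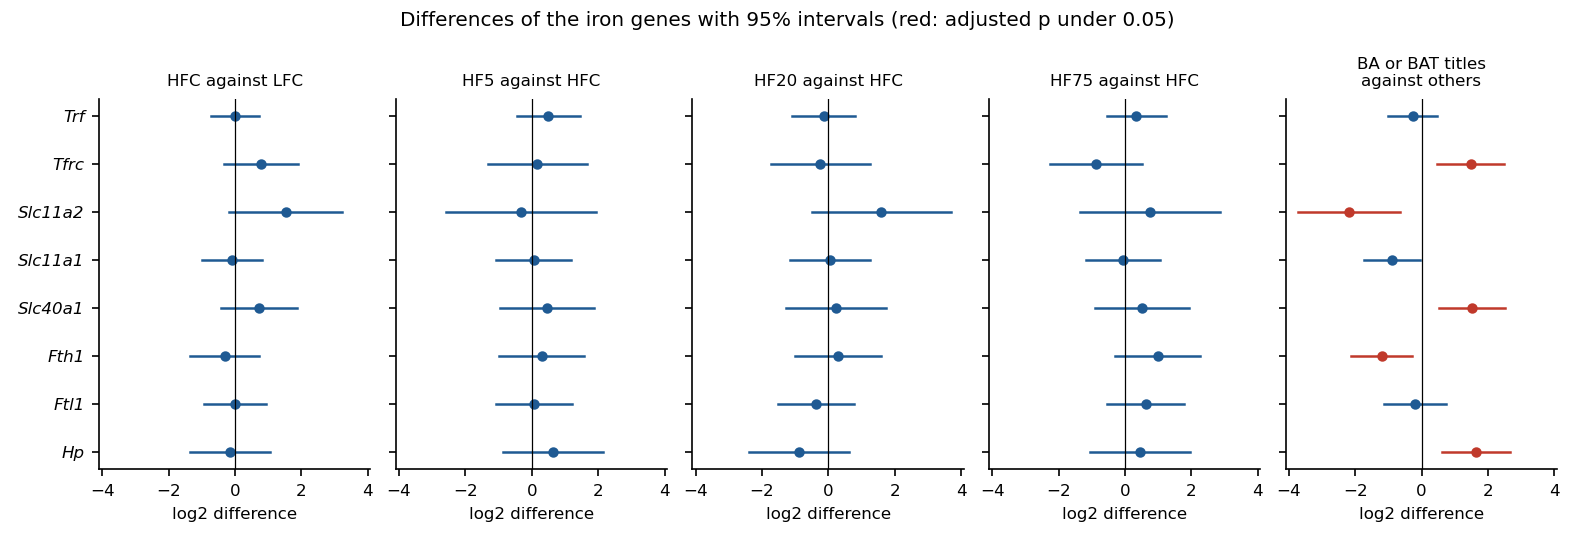
Estimated log2 differences of the 8 iron genes (points) with 95% intervals (lines) in 5 comparisons, on 1 common axis. Every interval of the 4 diet comparisons crosses 0, and 5 of the 8 genes pass for the titles (red). Of these, the Fth1 and Hp values rest on saturated spots, the Fth1 values being bounds with no direction, and Slc11a2 is shown on its shared probe alone.

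Of the 8 genes Hp had the steepest slope over time on the control diets and the smallest p, and it did not pass. On the 10 arrays of Day 1 to Week 0 it lay between 2.15 and 4.63, and on the 11 arrays from Week 3 on between 2.80 and 7.12. Its lowest values were those of Day 1 in both diets, 2.64 in LFC and 2.15 in HFC, and its highest were LFC Week 18 at 7.12 and HFC Week 6 at 6.43. The early and late values overlapped. The slope was 0.41 per doubling of days on diet (SE 0.11, 95% interval 0.18 to 0.65, unadjusted p = 0.0015). It did not pass over all probes (limma, adjusted p = 0.184), 11.9% of which had an unadjusted p under 0.05. Without the 9 titled arrays the slope was 0.26 (unadjusted p = 0.0781 in limma), and without saturated spots 0.25 (unadjusted p = 0.0209 in limma). Cell markers had slopes of their own. These were positive for 12 of 12 brown adipocyte markers, of which 4 had an unadjusted p under 0.05, for 8 of 12 general adipocyte markers (3) and for 10 of 10 skeletal muscle markers (1). They were negative for 9 of 9 erythroid markers (7), 10 of 10 cell cycle markers (7), 7 of 7 endothelial markers (7) and 11 of 12 neutrophil markers (2). None of these passed after adjustment (limma), and their part in the Hp slope was not tested. The other 7 genes had slopes between -0.04 and 0.13 per doubling, none with an unadjusted p under 0.05.

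Day 14 and Week 0 fall on the same day, as the methods count weeks from Day 14, and give the only repeat within a diet. In HFC, Tfrc was -0.12 on the first array and -1.93 on the second, a gap of 1.80. In LFC the gap was 1.18, and that of Slc40a1 was 1.11 in LFC and 0.94 in HFC. Hp repeated to 0.14 in LFC and 0.03 in HFC, and Fth1 to 0.01 and 0.52. Under the scanner labels the gaps of Tfrc and Slc40a1 on 1 day were thus larger than their estimated differences between diets. The deposited series table names the Day 14 columns the other way round. Under its labels HFC would pair -1.38 with -1.93 for Tfrc and -0.31 with -0.77 for Slc40a1, which are smaller gaps. LFC would pair -0.12 with -2.55 and 0.17 with -1.42, which are larger ones.

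**Figure D3:**
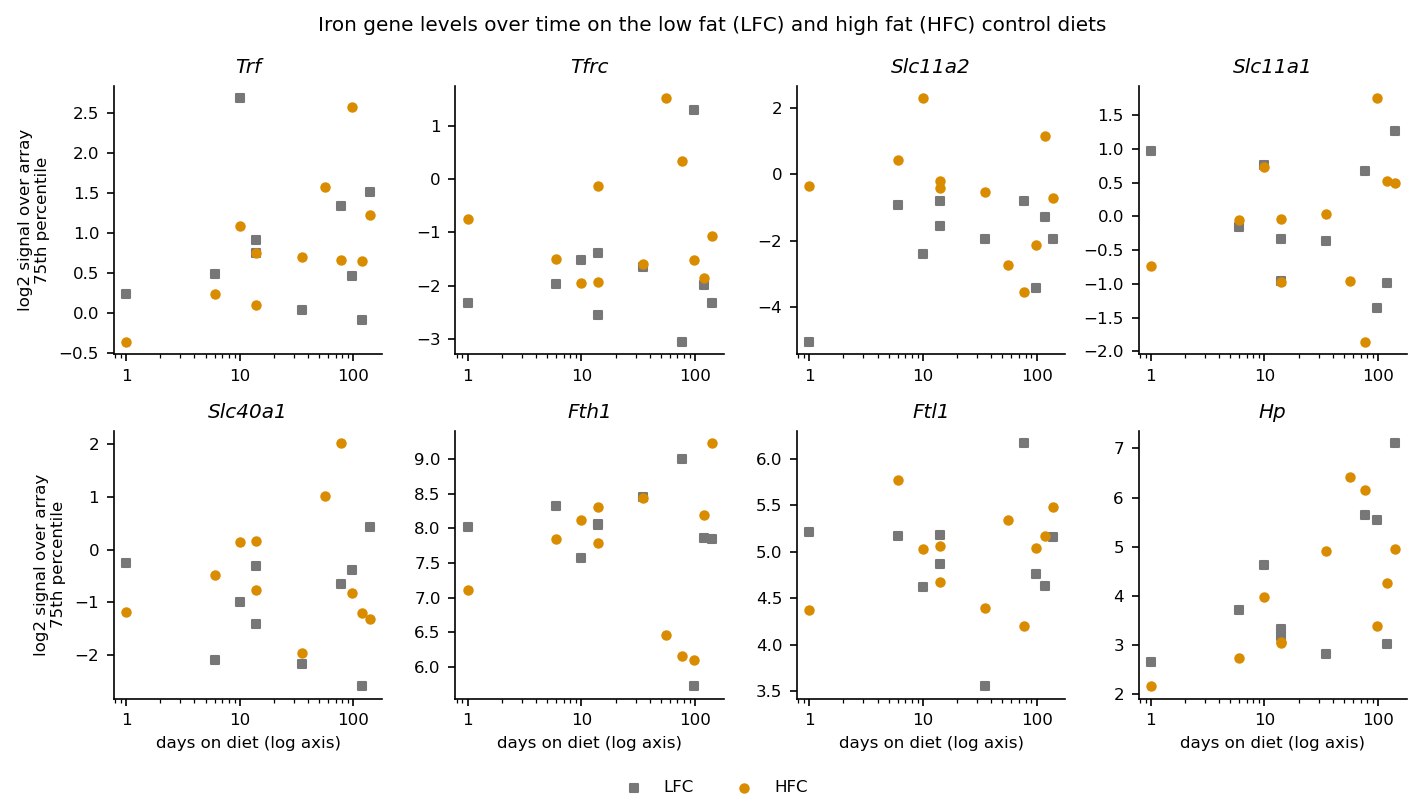
Levels of the 8 iron genes, as log2 signal over the 75th percentile of the array, against days on diet on a log axis, for LFC (grey squares) and HFC (orange circles). Hp lies between 2.15 and 4.63 up to day 14 and reaches 7.12 later, while the other genes scatter with no trend that passed.

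By the titles, 5 of the 8 iron genes passed and 3 did not. The 9 arrays titled BA or BAT were compared with the other 30 in a fit with diet and time label, in which 17828 of 34043 probes passed, 52.4% of all, with 20.5% higher and 31.8% lower and a median difference of -0.30 over all probes. Under quantile normalization 6942 probes were higher and 3485 lower. An unadjusted p under 0.05 was reached by 58.7% of probes. The 5 iron genes of 8 are close to the share of all probes that passed, so the count says nothing particular about iron. Tfrc was -0.18 ± 1.32 (SD, n = 9) on titled arrays, from -2.32 to 1.30, and -1.59 ± 1.03 (n = 28) on the others, from -3.66 to 1.52. Slc40a1 was 0.57 ± 1.49 (n = 9), from -2.11 to 2.03, against -0.71 ± 1.03 (n = 29), from -3.04 to 1.02. The ranges overlapped for both. For both the highest of the other arrays was HFC Week 6, with a 75th percentile of 748 units, near the 852 units of the titled median. Its neutrophil and erythroid marker means were -4.03 and -3.23, as low as on most titled arrays. On the titled HFC Day 1 array these means were 0.82 and 0.45, and on the titled LFC Day 6 array -1.04 and -0.06. The title thus does not split the arrays cleanly. The differences were 1.48 (SE 0.49) for Tfrc and 1.52 (SE 0.48) for Slc40a1, with adjusted p = 0.0155 and 0.0107 in limma. Under the normexp background correction Tfrc was 0.07 and did not pass (limma, adjusted p = 0.836). Tfrc was higher on titled arrays at 4 of 6 time labels that hold both kinds, and its difference was -1.86 at Week 18. Slc40a1 too was higher at 4 of 6, and its difference was -0.92 on Day 1 and -1.63 on Day 6. Leaving out Week 9, 12 or 15, with 2 titled arrays each, ended the calls of Tfrc (1.17, 0.97 and 1.39), Slc40a1 (1.502, 1.05 and 1.09) and Slc11a2 (-1.74, -2.06 and -1.14).

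Hp was 5.47 ± 1.55 (SD, n = 9) on titled arrays and 4.21 ± 1.52 (n = 30) on the others, a difference of 1.65 (SE 0.50, limma, adjusted p = 0.00845). It was saturated on 7 of the 9 titled arrays and on 1 of the others. With saturated spots left out the difference was 0.24 and did not pass (limma, adjusted p = 0.866), but then only the Day 1 and Day 6 arrays stood for the titled ones. Fth1 was 6.69 ± 0.88 (n = 9) against 8.22 ± 1.195 (n = 30), a difference of -1.21 (SE 0.45, limma, adjusted p = 0.027). Fth1 too was saturated on 7 of the 9 titled arrays, where the true level is at or above the value, and without saturated spots the difference was -0.26 (limma, adjusted p = 0.796), with LFC Day 6 and LFC Week 18 alone standing for the titled arrays. The lower Fth1 values of titled arrays are therefore bounds and give no direction. Trf (-0.27, SE 0.36), Ftl1 (-0.20, SE 0.45) and Slc11a1 (-0.89, SE 0.41) did not pass (limma, adjusted p = 0.541, 0.724 and 0.0712). Without the time label as a replicate block Slc11a1 passed at -0.95 (limma, adjusted p = 0.024) and Hp did not at 1.22 (limma, adjusted p = 0.0648). Under quantile normalization neither Fth1 (-0.48) nor Slc11a2 on its shared probe (-1.76) passed (limma, adjusted p = 0.123 and 0.0591), and under normexp Fth1 turned to 0.33.

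Slc11a2 gave opposite answers on its probes. On the shared probe, whose sequence is given above, the titled arrays were at -4.34, -3.84, -3.53, -3.43, -2.70, -2.08, -1.96, -0.92 and -0.35, and the others ranged from -5.04 to 3.72 around a median of -0.43. The difference was -2.19 (SE 0.75, limma, adjusted p = 0.0167). On the probe listed for 1 record the titled arrays ranged from -1.28 to 1.05 and the others from -2.92 to 0.65, a difference of 1.84 (SE 0.30, limma, adjusted p = 0.000132). On the probe listed for the other record the difference was 1.94 (SE 0.49, limma, adjusted p = 0.00234), though it was well above background on only 16 of 38 arrays. The shared probe was lower on titled arrays at 5 of 6 time labels, the first single-record probe higher at 6 of 6 and the second at 5 of 6. Over arrays the shared probe ran against the others, with r = -0.66 and -0.60 (37 arrays each), while those had r = 0.71 between them (38 arrays). Normexp turned the second single-record probe to -0.68 (limma, adjusted p = 0.0217) and kept the sign of the other 2 probes. The mean of all 3 probes differed by 0.50 and did not pass (limma, adjusted p = 0.254), so no single level of Slc11a2 can be given for these cells.

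**Figure D4:**
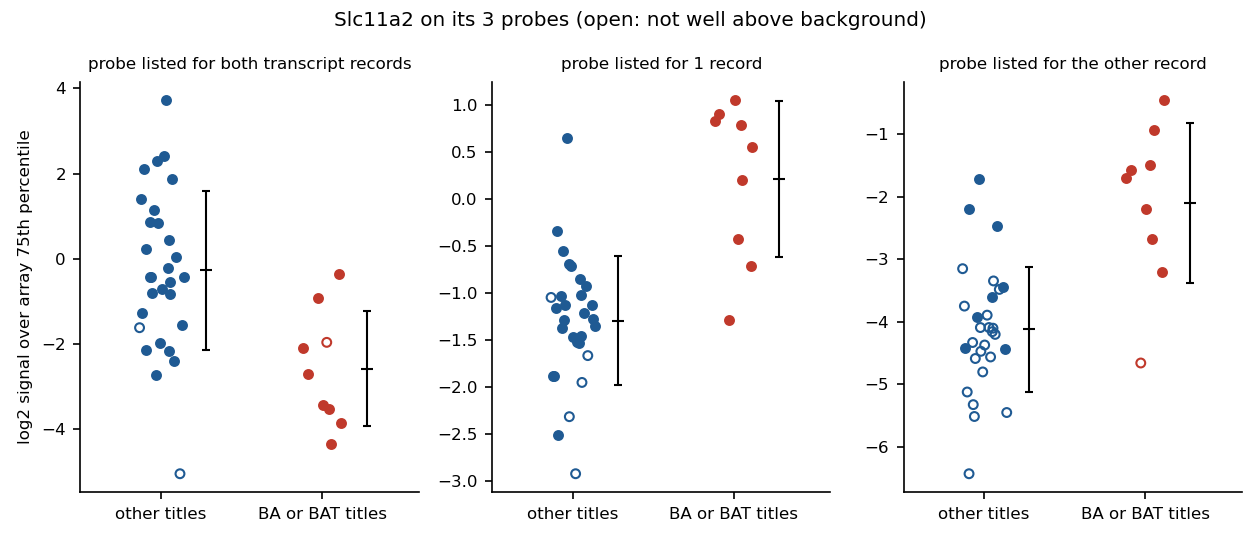
Slc11a2 on its 3 probes, as log2 signal over the 75th percentile of the array, on arrays with other titles (blue) and the 9 titled BA or BAT (red), with mean and SD; open points are not well above background. The titled arrays are lower on the shared probe and higher on the probes listed for 1 transcript record each.

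The titled arrays also differed in cell markers. The mean of 12 brown adipocyte markers had a median of 1.30 on titled arrays (-1.37 to 2.18). On the others it was -0.02 (-4.88 to 1.62). Of the 12 markers 6 passed, all higher, where 52.4% of all probes passed, 20.5% higher. The mean of 12 general adipocyte markers had a median of 1.30 on titled arrays (-0.68 to 2.15) and -0.34 on the others (-3.47 to 1.495). That of 12 neutrophil markers had a median of -3.23 (-3.87 to 0.82) against 0.39 (-4.03 to 3.80), and that of 9 erythroid markers -2.62 (-3.73 to 0.45) against 1.03 (-3.23 to 2.72). Macrophage markers had a median of -0.63 (-1.51 to -0.14) against 0.32 (-2.11 to 2.08). The 8 markers of iron-recycling macrophages had a median of -1.47 (-2.07 to 1.46) against 0.47 (-2.28 to 2.09), and 5 of the 8 passed, all lower. Hepatocyte markers passed lower for 5 of 8, T cell markers for 6 of 8 and B cell markers for 6 of 8. Only 1, 3 and 3 genes of these lists were well above background on at least 30 arrays, so their values are less precise. Fibroblast markers passed lower for 5 of 8, cell cycle markers for 6 of 10 and endothelial markers for 2 of 7. No skeletal muscle marker passed. Of all probes 52.4% passed, 31.8% lower. The part of these cells in the title differences of the iron genes was not tested.

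Each iron gene was set against the mean of 5 marker lists over arrays, 40 relations in all, and 18 had an adjusted p under 0.05 in a permutation test of r. Arrays share mice of 1 diet course and the scaling of each array, so these relations are among arrays and not among cells. Without the titled arrays 8 of the 18 no longer passed, 4 of them those of Tfrc. Slc11a1 followed the macrophage markers (r = 0.78, rho = 0.74, raw p = 1e-05, adjusted p = 5.71e-05 by permutation, 38 arrays), and r was 0.72 without the 2 arrays farthest from the list's median, 0.83 within time labels and 0.76 without titled arrays. The smallest p that 100000 permutations give is 1e-05. Slc40a1 followed the general adipocyte markers (r = 0.72, rho = 0.71, raw p = 1e-05, adjusted p = 5.71e-05 by permutation, 38 arrays), with r = 0.71, 0.66 and 0.62 in those 3 forms. With the brown adipocyte markers its r was 0.52 (rho = 0.64, adjusted p = 0.00214 by permutation). Without titled arrays this was 0.30 and no longer passed (adjusted p = 0.208 by permutation). Its r with the macrophage markers was -0.10 (rho = -0.08, adjusted p = 0.58 by permutation) and 0.43 without titled arrays.

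Hp followed the same general adipocyte list (r = 0.81, rho = 0.76, raw p = 1e-05, adjusted p = 5.71e-05 by permutation, 39 arrays), and r was 0.73 without the 2 farthest arrays, 0.86 within time labels, 0.75 without titled arrays and 0.70 without saturated spots. With the brown adipocyte markers its r was 0.67 (rho = 0.74, adjusted p = 5.71e-05 by permutation), and 0.83 without the 2 farthest arrays. That r was 0.67 within time labels, 0.57 without titled arrays and 0.56 without saturated spots. Hp was not particular to fat cell lists once saturated spots were left out. Its r was then 0.60 with macrophage, 0.65 with neutrophil and 0.45 with erythroid markers (adjusted p = 0.00182, 0.000286 and 0.0225 by permutation). With all spots these were 0.09, -0.14 and -0.19, and none passed. Tfrc ran against the macrophage markers (r = -0.61, rho = -0.49, raw p = 4e-05, adjusted p = 0.00016 by permutation, 37 arrays), with r = -0.64 without the 2 farthest arrays and -0.67 within time labels. Without titled arrays this was -0.44 and no longer passed (adjusted p = 0.0538 by permutation). Ftl1 followed the macrophage markers (r = 0.66, rho = 0.63, raw p = 1e-05, adjusted p = 5.71e-05 by permutation, 39 arrays), with r = 0.65 in both of the first 2 forms and 0.72 without titled arrays. Fth1 had r = 0.78 with the erythroid markers (rho = 0.72, raw p = 1e-05, adjusted p = 5.71e-05 by permutation, 39 arrays) and 0.44 without its saturated spots. With the neutrophil, macrophage and brown adipocyte markers its r was 0.67, 0.66 and 0.22, the last of which did not pass. Without saturated spots these were 0.46, 0.56 and 0.59. The erythroid gene Hbb-b1 was itself saturated on 29 of 39 arrays. Slc11a2 on its shared probe followed the neutrophil markers (r = 0.69, rho = 0.67, raw p = 2e-05, adjusted p = 0.0001 by permutation, 38 arrays), at 0.66 without the 2 farthest arrays, 0.70 within time labels and 0.52 without titled arrays. Trf had no relation that passed, with r between -0.11 and 0.28.

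**Figure D5:**
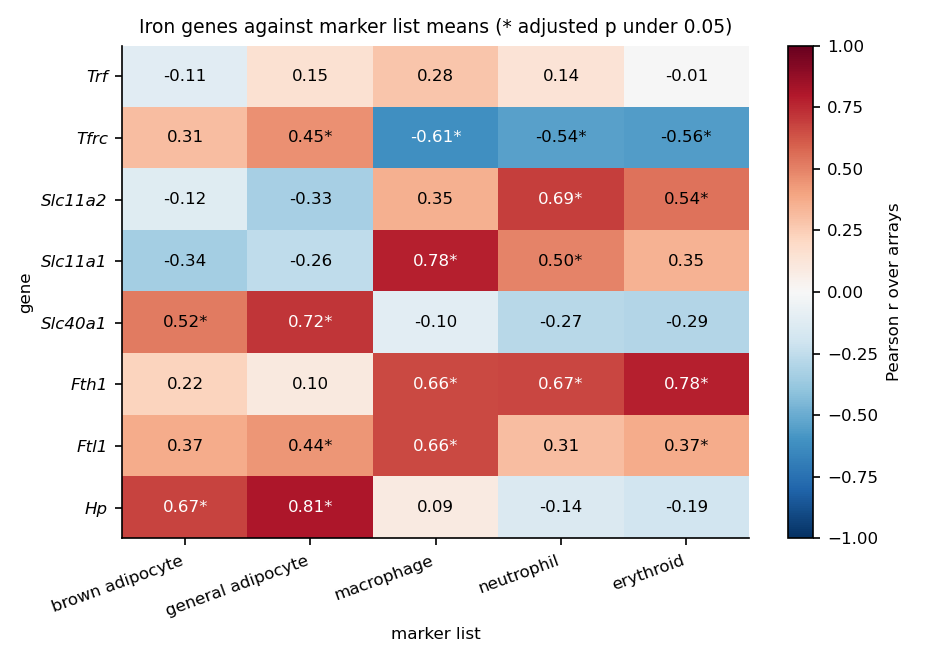
Pearson r over 37 to 39 arrays between each iron gene (rows) and the mean of each marker list (columns), in colour and in figures, with a star where the adjusted permutation p is under 0.05. Slc11a1 has its highest r with macrophage markers (0.78), and Slc40a1 and Hp with general adipocyte markers (0.72 and 0.81).

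The genes most like each iron gene were taken among 13001 genes well above background on at least 30 arrays, by r over arrays and as a description. For Slc11a1 these were Emp3 (r = 0.89), Tpd52 (0.86) and Cd44 (0.83), for Slc40a1 4833442J19Rik (0.85), Sephs2 (0.84) and Hsd17b4 (0.83), and for Hp Cdkn2c (0.89), Tpi1 (0.88) and Sord (0.87). For Trf they were Serpina3m (0.84), Gsta3 (0.74) and Akr1c19 (0.68), and for Tfrc Tmem48 (0.81), Ard1a (0.76) and Elmod3 (0.75). For Slc11a2 on its shared probe they were Tff1 (0.89), LOC100048632 (0.86) and Gm15930 (0.86). Fth1 was most like Gm12164 (0.97), Rps18 (0.96) and Rps12 (0.95), which were saturated on 20, 14 and 11 arrays. Ftl1 was most like Gm5278 (0.95), LOC630762 (0.94) and LOC434624 (0.92). Among the iron genes the highest r was 0.71, of Fth1 with Ftl1 (39 arrays), and the same without saturated spots (26 arrays). Slc40a1 with Hp had 0.68 (38 arrays), and 0.53 without saturated spots (30 arrays). The lowest was -0.68, of Tfrc with Slc11a1 (37 arrays), neither of which was saturated. Tfrc with Fth1 had -0.67 (37 arrays), which was 0.12 without saturated spots (25 arrays).

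Other genes of iron handling were read from 4 lists. Between HFC and LFC 0 of the 47 genes tested had an unadjusted p under 0.05, and 0 passed for any dose, the dose trend or the time trend. With the doses, Slc39a14, a metal importer of the cell membrane, had the smallest p. It was lower in HF75 than in HFC by a difference of -1.57 (SE 0.42, unadjusted p = 0.000802) and had a dose slope of -0.54 (SE 0.13, unadjusted p = 0.000402), which did not pass (limma, adjusted p = 1 and 0.396). It was well above background on 23 of 38 arrays. Ftmt, the mitochondrial ferritin, had 1.97 (SE 0.81) in HF20 and 1.76 (SE 0.76) in HF75, with a slope of 0.75 (SE 0.26), and was well above background on 21 of 38 arrays. In HF20 the others with an unadjusted p under 0.05 in limma were Cybrd1, an iron reductase (1.90, well above background on 11 of 38 arrays), Bmp6, which induces hepcidin (-1.32), Heph, an iron oxidase that works with ferroportin (-0.91), and Abcg2, a porphyrin exporter (-0.89). In the dose trend they included Heph (-0.31) and Lrp1, the receptor of haemopexin (-0.32). Of all probes 2.66% had an unadjusted p under 0.05 in HF20, 3.55% in HF75 and 7.04% in the dose trend.

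Over time on the control diets, Hmox1, which breaks down haem, had a slope of -0.42 per doubling of days (SE 0.14, unadjusted p = 0.00685), and Bmp6 -0.28 (SE 0.09, unadjusted p = 0.00589). The others with an unadjusted p under 0.05 in limma were Slc25a37 (mitoferrin 1, -0.33), Abcg2 (-0.23), Slc46a1 (0.21), Iscu (0.22) and Fdx1 (0.23), the last 2 of iron-sulphur cluster assembly. None passed (limma, adjusted p from 0.257 to 0.417). By list these were 1 of 9 genes of iron regulation and 0 of 14 of further uptake and export. In haem scavenging and breakdown they were 3 of 10, and 3 of 14 in mitochondrial iron. Of all probes 11.9% had an unadjusted p under 0.05 in this trend.

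By title, 12 of 14 mitochondrial iron genes passed, 11 higher and 1 lower, where 52.4% of all probes passed, 20.5% higher and 31.8% lower. The median difference of the list was 1.54 against -0.30 over all probes. The higher ones included Abcb10 (2.38), Nfs1 (2.11), Fdx1 (2.02), Iscu (1.78), Glrx5 (1.73), Isca2 (1.58), Lyrm4 (1.503), Fech (1.18), Slc25a28 (1.09) and Fdxr (0.90). Among them Nfs1, Iscu and Glrx5 serve iron-sulphur cluster assembly and Fech puts iron into haem. Slc25a37, the mitoferrin of red cell precursors, was the lower one (-2.51). Isca1 (1.00) had an unadjusted p of 0.046 in limma and did not pass.

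Of 9 genes of iron regulation 2 passed, both higher: Aco1, the iron-sensing protein IRP1 (2.44), and Hfe (0.74). Of 14 further genes of uptake and export 5 passed, Steap4 higher (2.32) and Lcn2 (-3.64), Cybrd1 (-2.30), Ftmt (-2.21) and Scara5 (-1.36) lower. Cybrd1 and Ftmt were not well above background on many arrays, as given above, so their title values are less precise. Of 10 genes of haem scavenging and breakdown 2 passed, Slc46a1 (1.47) and Hmox2 (1.03), both higher, while Blvra (0.90), Slc48a1 (0.63) and Abcg2 (-0.71) had an unadjusted p under 0.05 in limma and did not pass. In each of these 3 lists the share that passed lies below the 52.4% of all probes. Their medians were 0.42, -0.20 and 0.43.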

How the data were processed

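RNA of brown fat stromal vascular cells was hybridised to 39 1-colour Agilent mouse arrays, which were grouped by diet and time label from the labels. Per the file headers, the deposited scanner files hold spot intensity, background-subtracted by Agilent Feature Extraction 10.5.1.1 (the submitters' processing notes name 9.1). The deposited series table holds log2 values that the authors shifted to the 75th percentile and set relative to 1 array of the time label, which is the LFC array at every label except Day 14 and Week 6. For Week 6, which has no LFC array, the reference was not identified. It served as an alternative and for probe annotation. In it the Day 14 columns are named the other way round from the scanner files (r = -0.995), and the HFC Week 12 column has r = 0.83 with its array, so both were varied.

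The processed signal was taken as log2 minus the array's 75th percentile, outlier-marked spots were dropped, and spots of a probe were averaged. Each gene was read from its brightest probe. Probes well above background on at least 6 arrays were kept (34043 probes, 24723 genes). Arrays have no read depth, and the signal over background limits precision. At most 2 probe values were equal on any pair of arrays.

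Diets were compared with limma 3.58.1 (R 4.3.3) in an additive fit of diet and time label over 39 arrays, the dose trend over 24 arrays and the time trend over 21 arrays of LFC and HFC. Every test was two-sided, with Benjamini-Hochberg adjustment over the probes kept and a threshold of 0.05. Where an array lacked a value it was left out of that probe's fit, and none was imputed. Fits were tested on simulated data, with 200 probes changed. Relations with marker lists used two-sided permutation tests (100000 permutations), adjusted over 40 pairs. A list's mean was taken over genes centred on their own mean, without the iron genes. Genes named beyond the 8 are those of the 4 iron lists with an unadjusted p under 0.05 and the 3 most alike per gene. Some genes of these lists are not reported here. Levels and relations were computed in Python 3.11.15 (pandas 2.3.3, numpy 2.4.6, figures by matplotlib 3.10.9). Sequences are those of the deposited table.

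The genes and lists were chosen with earlier results of these data known. Alternatives were quantile normalization, normexp, filters, spots kept, means of probes, blocks, array weights, left-out arrays and time labels, and a t-test with time labels as replicates. Leaving out saturated spots, the HFC Week 12, HF20 Week 12 or HF20 Week 15 array, and exchanging the Day 14 labels, were chosen after seeing the data.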

Additional observations from a re-analysis of the deposited data

Results flagged for a closer look

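Among 32 groups of 5 to 10 arrays (8 iron genes in LFC, HF5, HF20 and HF75) 6 held an array far from the others, where the gap to the nearest array over the whole range passed Dixon's 95% critical value. Chance flags about 1 in 20 groups. LFC Week 12, an array titled BA or BAT, was the highest of LFC for Tfrc at 1.30 (gap over range 0.62) and the lowest for Fth1 at 5.72 (0.56), where its spot was saturated. HF75 Week 15, also so titled and saturated, was the lowest of HF75 for Fth1 at 6.52 (0.72). HF75 Week 18 was the highest of HF75 for Trf at 3.95 (0.84), on the array whose 8 hepatocyte markers had the highest mean of all arrays. HF20 Week 15, with 71.4% of spots marked as outliers, was the lowest of HF20 for Ftl1 at 0.85 (0.68). HF5 Week 12, with 18.6% marked, was the lowest of HF5 for Hp at 2.31 (0.72). The part of titles, saturation, liver messages and marked spots in these values was not tested.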

How the results depend on the processing

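No result of the 8 genes passed in a diet comparison, the dose trend or the time trend at the settings described, and the signs that changed under an alternative are given here. The number of probes past the threshold for HFC against LFC was 0, and it became 3 under quantile normalization, 32 with arrays weighted by quality, 2 without titled arrays, 1 without saturated spots, 1 without the HF20 Week 15 array, 1 without the HF20 Week 12 array, and 0 to 1 with single time labels left out. For HF75 against HFC it was 3 without titled arrays. The dose trend had 23 with arrays weighted by quality and 0 to 7 with labels left out, most without Week 15. The time trend had 5 under quantile normalization, 5 with the filter at 20 arrays, 158 with arrays weighted by quality and 0 to 1 with labels left out. For titles the 17828 probes became 10427 under quantile normalization, 28430 under normexp, 11478 with the filter at 20 arrays, and 10067 to 20348 with labels left out. The causes were not tested. Without the replicate block, in which the time label pairs the diets, 0 probes passed for each diet and the dose trend, and 16106 for titles. A t-test with time labels as replicates gave 1284 probes at an unadjusted p under 0.05 for HFC against LFC and 0 after Benjamini-Hochberg. The paper's own t-test compares repeats at a single time point. With 1 array for each diet and label it could not be run here. For titles, Hp at 0.97 did not pass without arrays with over 10% outlier-marked spots, nor without Week 12 (1.02) or Week 15 (1.16), and Fth1 did not with slide as a random block (-0.97) or without Week 9 (-0.70), Week 12 (-1.35) or Week 18 (-1.22). Slc11a1 passed under normexp (-1.01), with slide as a block (-0.9997), with weights (-1.602) and without Week 18 (-1.30), and Ftl1 with weights (-1.03) and without arrays with over 10% marked spots (-0.77). Saturation limits Fth1 and Hp, dim spots limit Tfrc and Slc11a2, and 1 array per diet and label limits all comparisons.

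With the Day 14 labels exchanged, opposite signs came for HFC against LFC from Ftl1 0.028. With arrays weighted by quality, opposite signs came for HFC against LFC from Slc11a1 0.088 and Ftl1 0.028, for HF20 against HFC from Trf 0.11, Ftl1 0.53 and Hp 0.0097, for dose trend from Trf 0.00010, for trend over time from Slc11a2 0.0048, Slc40a1 -0.11 and Fth1 0.048. In the deposited series table, opposite signs came for HF20 against HFC from Trf 0.28, for HF75 against HFC from Slc11a1 0.34. Within time labels, opposite signs came for r with general adipocyte markers from Trf -0.015. With the mean of all probes, opposite signs came for HF75 against HFC from Slc11a2 -0.26, for trend over time from Slc11a2 0.068, for titles from Slc11a2 0.50. Without the replicate block, opposite signs came for HFC against LFC from Trf 0.0011 and Ftl1 0.026, for HF20 against HFC from Trf 0.15. Under normexp, opposite signs came for HFC against LFC from Trf 0.030, Slc11a1 0.13, Fth1 0.033 and Ftl1 0.15, for HF5 against HFC from Trf -0.15, Slc11a1 -0.20, Fth1 -0.29, Ftl1 -0.65 and Hp -0.050, for HF20 against HFC from Slc40a1 -0.096, for HF75 against HFC from Trf -0.045 and Hp -0.14, for titles from Trf 0.36, Fth1 0.33 and Ftl1 1.46. With outlier-marked spots kept, opposite signs came for HF5 against HFC from Slc11a2 0.18, for HF20 against HFC from Trf 0.052, Slc11a1 -0.038 and Slc40a1 -0.11. Under quantile normalization, opposite signs came for HFC against LFC from Trf 0.016, Ftl1 0.042 and Hp 0.013, for trend over time from Slc11a2 0.0080 and Ftl1 -0.043, for r with general adipocyte markers from Fth1 -0.22, for r with erythroid markers from Trf 0.00040. Without saturated spots, opposite signs came for HFC against LFC from Fth1 0.20 and Hp 0.043, for HF5 against HFC from Fth1 -0.20, for trend over time from Fth1 0.095, for r with neutrophil markers from Hp 0.65, for r with erythroid markers from Hp 0.45. With scan date as a random block, opposite signs came for HFC against LFC from Ftl1 0.0071, for trend over time from Slc11a1 -0.0089. With slide as a random block, opposite signs came for titles from Ftl1 0.14. With the t-test over time labels, opposite signs came for HFC against LFC from Trf 0.0011 and Ftl1 0.026, for HF5 against HFC from Tfrc -0.054, Slc11a2 0.21 and Slc11a1 -0.015. Without arrays with over 10% outlier-marked spots, opposite signs came for HFC against LFC from Hp 0.087, for HF5 against HFC from Tfrc -0.060, for HF20 against HFC from Trf 0.14 and Ftl1 0.38, for HF75 against HFC from Slc11a1 0.33, for dose trend from Trf 0.062 and Slc11a1 0.080, for trend over time from Slc11a2 0.011 and Slc11a1 -0.042. Without the 2 arrays farthest from the list median, opposite signs came for r with brown adipocyte markers from Trf 0.34, for r with general adipocyte markers from Fth1 -0.22, for r with macrophage markers from Slc40a1 0.020 and Hp -0.052. Without the 9 arrays titled BA or BAT, opposite signs came for HFC against LFC from Slc11a1 0.44, Ftl1 0.38 and Hp 0.45, for HF5 against HFC from Tfrc -0.99, Slc11a2 1.39 and Ftl1 -0.21, for HF20 against HFC from Slc11a1 -0.025, Slc40a1 -0.29 and Fth1 -0.14, for HF75 against HFC from Hp -0.029, for dose trend from Ftl1 -0.049, for trend over time from Slc11a2 0.14, Slc11a1 -0.030, Slc40a1 -0.22, Fth1 0.022 and Ftl1 -0.0096, for r with brown adipocyte markers from Slc11a2 0.23, for r with general adipocyte markers from Slc11a2 0.0045, for r with macrophage markers from Slc40a1 0.43, for r with neutrophil markers from Slc40a1 0.29 and Hp 0.38, for r with erythroid markers from Slc11a1 -0.021, Slc40a1 0.29 and Hp 0.25. Without the HF20 Week 12 array, opposite signs came for HF20 against HFC from Slc40a1 -0.36. Without the HF20 Week 15 array, opposite signs came for HFC against LFC from Ftl1 0.0092, for HF20 against HFC from Ftl1 0.34, for dose trend from Hp 0.032. Without the HFC Week 12 array, opposite signs came for HF5 against HFC from Tfrc -0.060, for HF20 against HFC from Trf 0.14, for HF75 against HFC from Slc11a1 0.35, for dose trend from Trf 0.062 and Slc11a1 0.11, for trend over time from Slc11a2 0.011 and Slc11a1 -0.042.

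Single time labels left out gave ranges across 0 for HFC against LFC from Trf -0.23 to 0.16, Slc11a1 -0.42 to 0.16, Ftl1 -0.14 to 0.19 and Hp -0.41 to 0.063. Such ranges came for HF5 against HFC from Tfrc -0.20 to 0.79, Slc11a2 -1.07 to 0.74, Slc11a1 -0.28 to 0.56, Slc40a1 -0.11 to 1.07, Fth1 -0.11 to 0.72 and Ftl1 -0.44 to 0.53. Such ranges came for HF20 against HFC from Tfrc -0.72 to 0.42, Trf -0.26 to 0.0098, Slc11a1 -0.36 to 0.58, Slc40a1 -0.18 to 0.66, Fth1 -0.15 to 1.17 and Ftl1 -0.76 to 0.40. Such ranges came for HF75 against HFC from Trf -0.13 to 0.70, Slc11a2 -0.064 to 1.98, Slc11a1 -0.34 to 0.24 and Slc40a1 -0.037 to 1.02. Such ranges came for dose trend from Trf -0.18 to 0.085, Slc11a1 -0.19 to 0.052, Slc40a1 -0.0050 to 0.31 and Hp -0.23 to 0.10. Such ranges came for trend over time from Slc11a2 -0.34 to 0.049, Slc11a1 -0.064 to 0.043, Slc40a1 -0.029 to 0.10, Fth1 -0.13 to 0.046 and Ftl1 -0.0092 to 0.043. Such ranges came for titles from Ftl1 -0.58 to 0.31.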
